A study of Homo sapiens with 7 samples.

Results

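The FOXA1 cistrome, the set of genomic sites where FOXA1 was found by chromatin immunoprecipitation sequencing, was compared between 2 established human prostate cancer cell lines, LNCaP and 22Rv1, which the labels call CWR22-Rv1. The 22Rv1 list came from cells labelled vehicle, with no agent or time given. The LNCaP list came from cells kept 4 hours in DMSO. Both lines were grown in RPMI-1640 medium with fetal bovine serum and antibiotics, and both libraries used an anti-FOXA1 antibody from Abcam. Peaks on chromosomes 1 to 22 and X were taken from the authors' deposited lists on build hg19, which gave 65093 peaks in 22Rv1 and 79741 in LNCaP. These 144834 peaks are part of the 467188 in the 7 lists of the series. The other FOXA1 lists are 22Rv1 with a control hairpin (shCTL), 22Rv1 with a hairpin against the methyltransferase SETD7 (shSETD7), LNCaP with GSK2879552, an inhibitor of the demethylase LSD1, and LNCaP given GSK2879552 and the SETD7 inhibitor PFI-2 (called the combination here). The last list maps SETD7 itself in vehicle 22Rv1 cells.

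FOXA1 is a forkhead transcription factor of the pioneer class, meaning that it can bind its motif on nucleosomes and open chromatin for other factors. In prostate luminal cells it occupies mostly distal enhancers and guides the androgen receptor to them. LNCaP was derived from a lymph node metastasis and responds to androgen. The 22Rv1 line came from a xenograft that had relapsed after castration of the host, and it produces androgen receptor splice variants beside the full-length receptor.

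Peaks with at least 1 bp in common with a peak from the other line were called shared, and those for which the other list held no peak within 1 kb were called line-private. Peaks with a neighbour inside 1 kb but no overlap formed a small class of their own. Each peak carries 1 score, a whole number set by the authors and not defined in the sources used here, so peaks were ranked by score only within their own list. There was 1 library per list, so no difference between the lines could be set against the spread between replicates and none was tested. Percentages carry 95% Wilson intervals, which cover counting error only. Read depth is unknown from peak lists.

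Before the comparison, the line labels were checked by overlap, with all lists cut to the 63952 highest scores. The LNCaP DMSO list overlapped the other LNCaP lists at 81.5% and 87.0% of its peaks, and the 22Rv1 lists at 30.2% to 47.2%. The 22Rv1 vehicle list overlapped the shCTL list of the same line at 62.1% of its peaks (61.7 to 62.5). It overlapped the shSETD7 list at 44.0% (43.6 to 44.3), which was no more than the 43.9% to 46.0% it shared with the LNCaP lists. The LNCaP lists thus grouped by line, and the vehicle list did so with shCTL but not with shSETD7. The highest score of the vehicle list was 3392, beside 3130 to 3780 in the LNCaP lists, 84065 in shCTL and 35543 in shSETD7. All peak names of the vehicle list also carry a tag, siNTC, that the labels do not mention. The part of these library differences in the results that follow was not tested. The overall shared and private shares and the private shares of the highest decile are also given with shCTL in place of the vehicle list. Other results rest on the vehicle list unless shCTL is named.

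In 22Rv1, 31466 peaks were shared, or 48.3% (48.0 to 48.7), 2532 lay near an LNCaP peak without overlap, or 3.89%, and 31095 were private, or 47.8% (47.4 to 48.2). In LNCaP, 31289 peaks were shared, or 39.2% (38.9 to 39.6), 2450 were near, or 3.07%, and 46002 were private, or 57.7% (57.3 to 58.0). Just inside the 1 kb limit, 214 peaks of 22Rv1 lay 900 to 1000 bp from an LNCaP peak, and just outside it 176 lay 1000 to 1100 bp away, with 204 and 213 for LNCaP. The lists differed in length. After both were cut to the 65461 highest scores, 52.8% of the 22Rv1 peaks and 53.7% of the LNCaP peaks were private. That cut removed 14622 LNCaP peaks at a score of 116, a value found on both sides of it.

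Private peaks sat low in the score order of their own list. In 22Rv1 the median score was 64 for private peaks and 139 for shared peaks, and 67.0% of the private peaks were in the lower 50% of the list. In LNCaP the medians were 174 and 340, and 60.9% of the private peaks were in the lower 50%. The shared fraction of 22Rv1 peaks was 24.1% (23.1 to 25.2) in the lowest score decile, 44.7% in the sixth and 91.9% (91.2 to 92.5) in the highest. In LNCaP it was 17.7% (16.8 to 18.5), 35.3% and 78.9% (78.0 to 79.8). Among the 100 highest scores, 99 of the 22Rv1 peaks and 98 of the LNCaP peaks were shared. Among the 1000 highest it was 975 and 928. The 1000 strongest sites of either line were thus nearly all listed in the other, and each decile down the list held a smaller shared fraction.

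**Figure D1:**
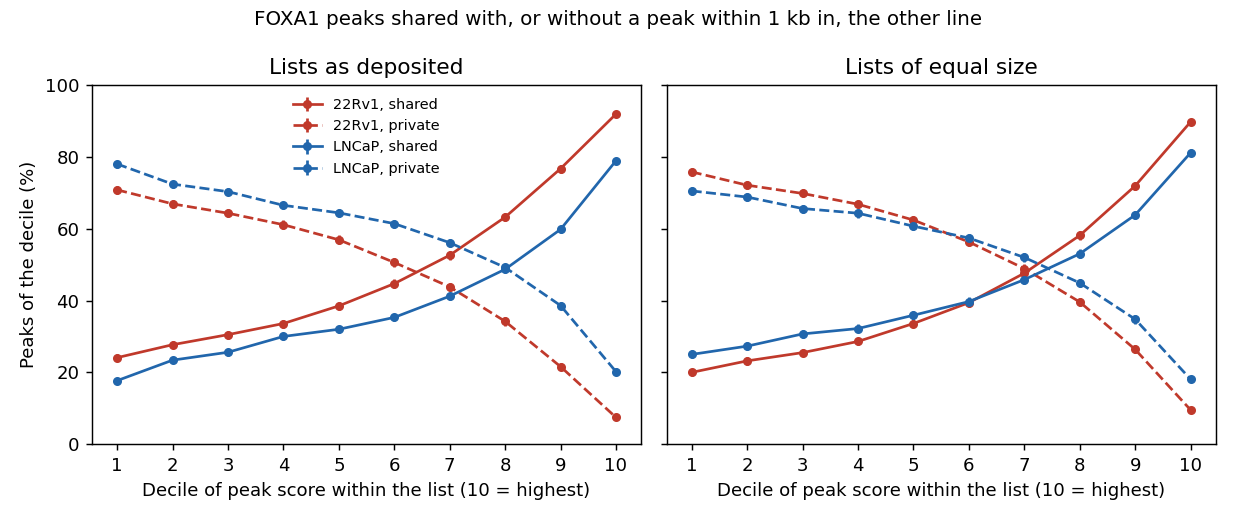
Shared (solid) and private (dashed) FOXA1 peaks as a percentage of each score decile, from the lowest (1) to the highest (10), for 22Rv1 (red) and LNCaP (blue). The left panel shows the lists as deposited and the right panel lists of equal size, and bars are 95% Wilson intervals, mostly hidden by the points. The shared fraction is highest in the highest decile in each case, at 91.9% and 78.9% as deposited and 89.7% and 81.1% at equal size.

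The highest decile held a larger private fraction in LNCaP than in 22Rv1. There were 486 private peaks in 22Rv1, or 7.47% (6.85 to 8.13), against 1610 in LNCaP, or 20.2% (19.3 to 21.1). With lists of equal size the values were 9.56% (8.87 to 10.3) and 18.1% (17.2 to 19.0), so the larger LNCaP fraction was also seen at equal length. In the lowest decile of the equal-sized lists the order was the other way, with 75.8% of 22Rv1 peaks and 70.5% of LNCaP peaks private. As deposited, the lowest decile kept the order of the highest, at 70.8% and 78.0%. The cut took away the lowest LNCaP scores, so the lowest decile then spanned 116 to 134 in LNCaP and 13 to 39 in 22Rv1. The gap at the top was smaller with the shCTL list of 22Rv1. With shCTL in place of the vehicle list, 12% of the highest shCTL decile and 16.3% of the highest LNCaP decile were private. The order of the overall private shares also turned with shCTL, to 51.2% in 22Rv1 and 49.3% in LNCaP. The lists were not cut to equal length here. With 83633 peaks, shCTL was longer than the LNCaP list (79741), whereas the vehicle list (65093) was shorter. The part of list length in these changes was not tested.

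The 4 FOXA1 lists that had no part in defining the classes showed how often private peaks were found again. Of the 22Rv1-private peaks, 50.2% overlapped a peak of shCTL and 33.1% a peak of shSETD7, against 6.83% for LNCaP with GSK2879552 and 7.99% for the combination. Shared 22Rv1 peaks were found in the same 4 lists at 84.6%, 54.1%, 86.4% and 94.2%. Recovery followed the score. In shCTL it was 28.8% of the private peaks of the lowest decile and 97.9% of the highest, or 476 of 486. In shSETD7 it was 18.9% and 81.3%. Shared peaks of the highest decile were found in shCTL at 98.8% and in shSETD7 at 78.3% (77.3 to 79.4), so high-scoring private peaks were found again about as often as high-scoring shared ones. Most private peaks of the lowest decile were in neither list.

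LNCaP-private peaks were found again more often. The combination list held 85.0% of them and the GSK2879552 list 61.3%, beside 94.3% and 86.8% of shared LNCaP peaks. The private shares went from 53.6% and 20.5% in the lowest decile to all 1610 in the highest for the combination. The 22Rv1 lists held fewer private peaks, with 23.3% in shCTL and 10.5% in shSETD7, beside 84.6% and 54.6% of shared peaks. However, 669 of the 1610 highest-decile LNCaP-private peaks, or 41.6%, overlapped a shCTL peak, against 94.0% of shared peaks in that decile, so many sites that were private against the vehicle list were occupied in another 22Rv1 library. The converse was less frequent, with 23.7% of highest-decile 22Rv1-private peaks in the combination list and 20.8% in the GSK2879552 list.

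**Figure D2:**
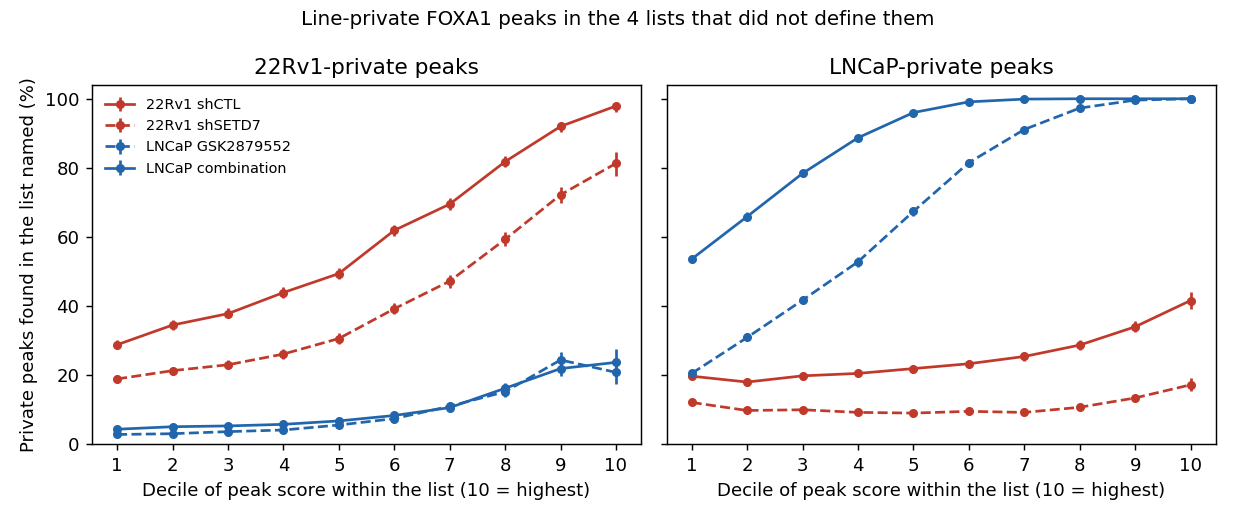
Percentage of 22Rv1-private peaks (left) and LNCaP-private peaks (right) that overlapped a peak in each of the 4 FOXA1 lists not used to define them, by score decile of the list they came from, with 95% Wilson intervals. Lists of the same line are above those of the other line at every decile, and closest at the lowest LNCaP decile, with 20.5% in GSK2879552 and 19.7% in 22Rv1 shCTL.

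A stricter description takes the other line's 3 FOXA1 lists together. Of the 22Rv1-private peaks, 86.9% had no peak of any LNCaP list within 1 kb, and in the highest decile 334 of 486 did, or 68.7%. Of the LNCaP-private peaks, 70.2% had none of the 22Rv1 lists within 1 kb, and 846 of 1610 in the highest decile, or 52.5%. Peaks that were in all 3 lists of their own line and near none of the other numbered 6239 in 22Rv1, or 20.1% of its private peaks, and 18166 in LNCaP, or 39.5%. In the highest 22Rv1 decile 264 of the 486 private peaks met this description.

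SETD7 peaks, mapped in 22Rv1 only, were few at FOXA1 sites of any class. They overlapped 954 of the 22Rv1-private FOXA1 peaks, or 3.07%, and 543 of the shared ones, or 1.73%. For LNCaP they overlapped 117 private peaks, or 0.254%, and 547 shared ones, or 1.75%. The SETD7 and vehicle FOXA1 lists come from the same line, and LNCaP-private peaks lack a vehicle FOXA1 peak by definition.

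Occupancy at shared sites was compared through the ranks of their scores. Spearman's rho of the scores over the 31466 shared 22Rv1 peaks was 0.38, beside 0.62 for vehicle and shCTL, 0.51 for vehicle and shSETD7, 0.81 for DMSO and GSK2879552 and 0.90 for DMSO and the combination, each over the shared peaks of that pair. The shCTL and combination lists, which share no library with the main pair, gave 0.42 between the lines. These values describe peaks within single libraries, which share width and local background, and carry no test. Rank order at shared sites was thus less alike between the lines than in the 4 pairs of lists within a line.

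Many of the strongest shared sites were among the strongest in both lists. Of the 5981 shared peaks in the highest 22Rv1 decile, 2994 were in the highest LNCaP decile as well, or 50.1%, and 665 were in the lower 50% of the LNCaP list, or 11.1%. From the LNCaP side, 2991 of 6294 shared highest-decile peaks were in the highest 22Rv1 decile, or 47.5%, and 874 were in its lower 50%, or 13.9%. Over all shared sites, 6294 of 31289 LNCaP peaks were in the highest decile and 1408 in the lowest. At the weak end, 150 of the 1571 shared peaks in the lowest 22Rv1 decile were also in the lowest LNCaP decile. Counted against the whole highest decile, private peaks included, 46.0% of the 22Rv1 peaks and 37.5% of the LNCaP peaks had a highest-decile partner.

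**Figure D3:**
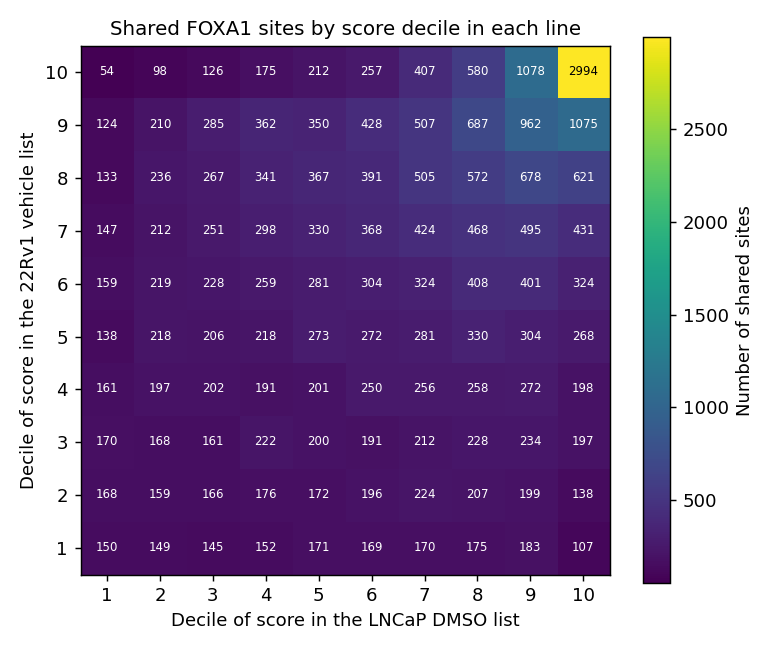
Number of shared FOXA1 sites by score decile in the LNCaP DMSO list (horizontal) and in the 22Rv1 vehicle list (vertical), with the highest decile at 10. The highest decile of both lists holds 2994 sites, and 54 sites are in the highest 22Rv1 and the lowest LNCaP decile.

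Where peaks of the lines overlapped, their positions were nearly the same. The overlap rule itself limits the distance between midpoints, with median widths of 262 bp in 22Rv1 and 333 bp in LNCaP. Near peaks without overlap are left out of these values. The midpoints of overlapping peaks lay a median of 24.5 bp apart, and 92.8% (92.5 to 93.1) lay within 100 bp. Nearly all overlaps were 1 to 1: 38 of the 22Rv1 peaks met more than 1 LNCaP peak and 212 of the LNCaP peaks met more than 1 22Rv1 peak. Private peaks were narrower as a whole, with median widths of 233 bp against 306 bp for shared peaks in 22Rv1 and 311 bp against 371 bp in LNCaP. The gap was smaller at matched score, and in LNCaP its direction turned. Within the highest decile the medians were 365.5 bp for private and 404 bp for shared peaks in 22Rv1, and 468 bp and 480 bp in LNCaP. In the lowest decile they were 192 bp and 199 bp in 22Rv1, and 228 bp for both classes in LNCaP. In every LNCaP decile from 2 to 9 private peaks were the wider class, with medians of 423.5 bp and 413 bp in the ninth.

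Most private peaks of each line lay within 100 kb of a peak of the other line. Such distances depend on list length, and no reference distance for random positions was computed. The median distance from a 22Rv1-private peak to the nearest LNCaP peak was 13.7 kb, and 1407 private peaks, or 4.52%, were over 100 kb from any. For LNCaP-private peaks the median was 17.5 kb, with 2211 peaks, or 4.81%, beyond 100 kb. In the highest decile the isolated fraction was larger, at 45 of 486 in 22Rv1, or 9.26%, and 136 of 1610 in LNCaP, or 8.45%. Distance to the nearest peak of the same list did not separate the classes, with medians of 13.1 kb for shared and 13.4 kb for private peaks in 22Rv1, and 11.5 kb and 11.6 kb in LNCaP.

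The 10 highest-scoring 22Rv1-private peaks all overlapped a peak in shCTL and in shSETD7, and 6 of them had no peak in any LNCaP list. The first, at chr6:75244182-75244684, had a score of 2430 and rank 47 in the vehicle list and 10556 in shCTL. Its score was 195 in shSETD7, and the LNCaP lists held a low peak there, 132 with GSK2879552 and 191 with the combination. The second, at chr8:39328713-39329180, scored 2118 with vehicle, 4002 in shCTL and 5406 in shSETD7, and was absent from all 3 LNCaP lists. So were chr12:96359910-96360629 (1747 with vehicle), chr7:114773421-114773997 (1726), chr9:110309162-110309582 (1571), chr7:57443409-57443877 (1530) and chr1:245208734-245209236 (1518). The remaining sites, chr7:140675812-140676223 (1853), chr9:92461003-92461447 (1816) and chr9:124952793-124953251 (1688), scored 143 to 168 where an LNCaP list held them. The score in shSETD7 was at most 203 at 3 of the 10 sites and at least 4126 at the other 7. One of these 3, chr7:57443409-57443877, also had the lowest shCTL score of the 10, at 395, where the rest scored 3751 to 10556. These scores were low only beside the other named sites. All were above the median of their list, which was 82 in shSETD7 and 136 in shCTL.

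The 10 highest-scoring LNCaP-private peaks were all in the GSK2879552 and combination lists with scores of the same order, from 1221 to 2412 and from 2197 to 2790. The first, at chr9:98802995-98803585, scored 2586 with DMSO, where it ranked 79, 2243 with GSK2879552 and 2728 with the combination, and no 22Rv1 list held a peak within 1 kb. Absence from all 22Rv1 lists also held for chr1:14825254-14825840 (2551 with DMSO), chr14:79892624-79893181 (2467), chr16:70993997-70994535 (2424), chr14:91521360-91521885 (2309) and chr20:15842672-15843339 (2228). At chr8:35719091-35719636 (2516), chr6:156790891-156791428 (2369) and chr17:49665352-49665961 (2292), shCTL held a peak scoring 175, 118 and 118. At chr18:57217042-57217589 (2259), shSETD7 held one scoring 44. The median score was 136 in shCTL and 82 in shSETD7, so 1 of these 4 peaks was above the median of its list and 3 were below it.

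The 5 shared sites with the best mean rank were within the first 15 positions of both lists. They lay at chr18:70856852-70857413 (3371 in 22Rv1, 3636 in LNCaP), chr17:5135435-5135937 (3316 and 3499), chr10:98430521-98431115 (3333 and 3238), chr2:242032650-242033291 (3171 and 3146) and chr12:64199688-64200256 (2894 and 3195). All were in the 6 FOXA1 lists. In shSETD7 the sites on chromosomes 18 and 12 scored 628 and 577, while the other 3 scored 7979 to 27135. All 5 were above the median score of that list, 82. None of the 25 named sites overlapped a SETD7 peak. Such overlap was rare among all peaks, at 3.07% of 22Rv1-private, 0.254% of LNCaP-private and 1.73% of shared 22Rv1 peaks, so the named sites do not stand out. No gene or sequence is attached to these positions, since no hg19 annotation or sequence was used here.

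Peaks of the lines were spread differently over the chromosomes. With lists of equal size, 22Rv1 had more peaks than LNCaP on 7 chromosomes and fewer on 16. The 3 highest ratios were on chromosome 7 (4849 against 3694 peaks, log2 ratio 0.39), chromosome 12 (4254 against 3258, 0.38) and chromosome 3 (6236 against 4977, 0.33). The 3 lowest were on chromosome 15 (1558 against 2102, −0.43), chromosome X (1382 against 1753, −0.34) and chromosome 14 (1807 against 2244, −0.31). The shCTL and combination lists, a second pair of libraries, gave the same sign on all 7 of the former and on 15 of the 16 latter. Their ratios were 0.33 on chromosome 7 and −0.41 on chromosome 15 but only 0.10 on chromosome 3. This pair is not a replicate of the first, since its cells carried a control hairpin or were given GSK2879552 and PFI-2. The shSETD7 and GSK2879552 lists gave the same sign on 6 and 15. In the higher-scoring 50% of each list the sign was kept on 7 and 14, and chromosome X went to 0.12 and chromosome 4 to 0.06, so the deficit on X lay among low-scoring peaks.

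**Figure D4:**
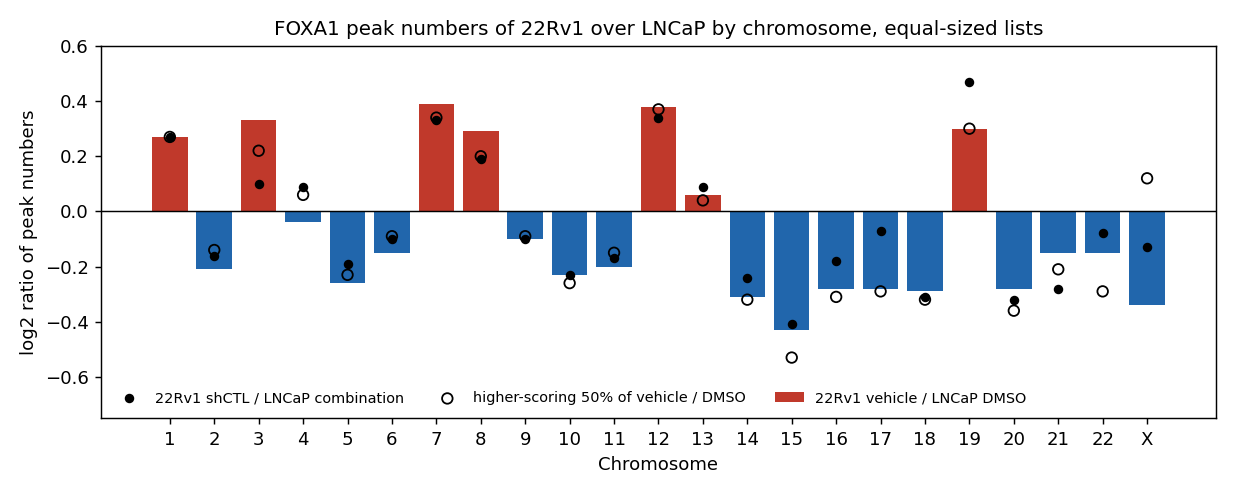
Log2 ratio of the number of 22Rv1 to LNCaP FOXA1 peaks on each chromosome for lists of equal size. Bars show the vehicle and DMSO lists (red above 0, blue below), filled points the shCTL and combination lists, and open circles the higher-scoring 50% of the vehicle and DMSO lists. Chromosomes 7 and 12 are above 0.3 and chromosome 15 is below −0.4 in all 3 comparisons, while chromosome X changes sign.

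The private fraction varied with the chromosome as well. In the lists as deposited, it ran in 22Rv1 from 40.3% on chromosome 17 to 54.9% (53.5 to 56.3) on chromosome 7, and in LNCaP from 49.8% on chromosome 12 to 65.8% on chromosome X. The 22Rv1 fraction exceeded that of LNCaP on 3 chromosomes of 23. In the highest decile, private peaks made up from 3.50% (1.50 to 7.92) of 22Rv1 peaks on chromosome 15 to 11.3% (7.63 to 16.3) on chromosome 13. The share over all chromosomes was 7.47%, which the first interval held and the second only just missed. In LNCaP private peaks made up from 14.8% (12.3 to 17.7) on chromosome 3 to 32.5% (27.0 to 38.6) on chromosome 16, beside 20.2% over all chromosomes. Shared sites differed by chromosome in rank: over all of them the median score percentile was 68.3 in 22Rv1 and 68.1 in LNCaP, while on chromosome 15 it was 62.2 and 73.6, and on chromosome 19 it was 70.0 and 60.6. Chromosomes 15 and 19 thus differed both in peak number and in the within-list score rank of sites that both lines had. On chromosome X the ranks went the other way from the counts, at 67.0 and 62.7.

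At finer scale, 307 windows of 10 Mb held at least 50 peaks of the 2 equal-sized lists together. The log2 ratio of peak numbers, with 0.5 added to each count, had a median of −0.04, a 10th percentile of −0.55 and a 90th percentile of 0.49. A single window exceeded 1, or 0.326% of the windows, and 4 were below −1, or 1.30%. With the lists as deposited, 18 of 307 were beyond 1 in size. The window above 1 was chromosome 1 from 190 to 200 Mb, with 464 peaks in 22Rv1 and 188 in LNCaP (1.30), and the second pair gave 1.17. Below −1 were chromosome 11 from 130 to 140 Mb (37 against 101, −1.44) and 3 windows of chromosome 2, from 170 to 180 Mb (94 against 253, −1.42), from 160 to 170 Mb (91 against 232, −1.35) and from 140 to 150 Mb (91 against 203, −1.15). The shCTL and combination lists gave −1.93, −1.10, −0.70 and −0.70 there, so all 5 windows kept their sign and 3 stayed beyond 1 in size.

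The next windows above 0 were chromosome 13 from 80 to 90 Mb (247 against 127, 0.96), chromosome 1 from 210 to 220 Mb (413 against 217, 0.93), chromosome 8 from 110 to 120 Mb (336 against 181, 0.89) and chromosome 4 from 190 Mb to its end (48 against 26, 0.87). The second pair gave 0.89, 0.53, 0.79 and 0.14. The next below 0 was chromosome X from 150 Mb to its end (26 against 52, −0.99), where the second pair gave −0.03. The 2 windows that the second pair did not carry were thus chromosome ends with few peaks. Over all 307 windows the sign was the same in 257, and the ratios of the 2 pairs of libraries had a Pearson r of 0.83 and a Spearman rho of 0.83. This is a description over windows that share 4 libraries and have neighbours in common. Over the 299 windows with at least 20 shared sites, the peak number ratio and the difference in median score percentile at shared sites had r of 0.51 and rho of 0.56, with the vehicle and DMSO libraries behind both axes.

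**Figure D5:**
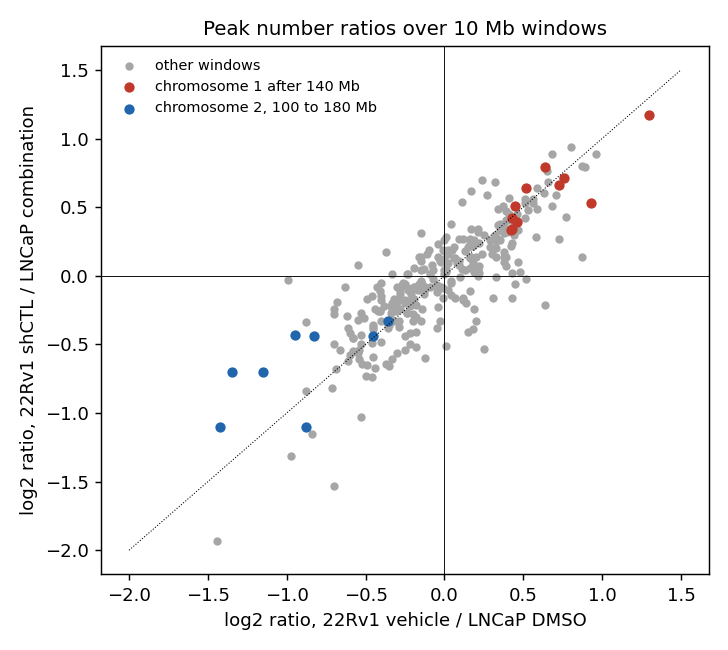
Log2 ratio of 22Rv1 to LNCaP FOXA1 peak numbers in 307 windows of 10 Mb, for the vehicle and DMSO lists (horizontal) and the shCTL and combination lists (vertical), each at equal size. The dotted line marks equal ratios, and the windows of chromosome 1 after 140 Mb (red) and of chromosome 2 from 100 to 180 Mb (blue) keep their sign in both pairs.

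Windows with a ratio beyond 0.3 in size often stood side by side. Stretches of at least 4 such neighbours were picked after the values were seen. On chromosome 1 all 11 windows from 140 Mb to the end were between 0.42 and 1.30, with 4239 peaks in 22Rv1 and 2727 in LNCaP (0.64), and 0.58 in the second pair. In the same windows of the lists as deposited, 56.9% of the 22Rv1 peaks and 47.0% of the LNCaP peaks were private, and shared sites had a median percentile of 73.7 in 22Rv1 and 63.6 in LNCaP. Other stretches with more 22Rv1 peaks were chromosome 3 from 70 to 110 Mb (0.62), chromosome 7 from 50 to 130 Mb (0.49) and chromosome 12 from 10 to 100 Mb (0.45), with 0.37, 0.43 and 0.36 in the second pair. In these 4 stretches shared sites ranked higher in 22Rv1.

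The lowest ratio of a stretch was chromosome 2 from 100 to 180 Mb, where 8 windows held 953 peaks against 1755 (−0.88), with −0.64 in the second pair. In the lists as deposited, 31.9% (29.0 to 34.9) of the 22Rv1 peaks there were private, against 69.9% (68.0 to 71.9) of the longer LNCaP list. Of the highest-decile LNCaP peaks there, 41 of 159 were private, beside 1610 of 7974, or 20.2%, in that decile of the whole list. Shared sites had nearly the same median percentile in both lines, 68.5 and 71.2. On chromosome 15 from 30 Mb to the end (1402 against 1916, −0.45; −0.40 in the second pair) the percentiles differed more, at 62.2 in 22Rv1 and 74.0 in LNCaP. Chromosome 16 from 50 to 90 Mb (−0.48), chromosome X up to 50 Mb (−0.63) and chromosome X from 100 to 140 Mb (−0.53) were also lower, with −0.33, −0.24 and −0.25 in the second pair. On chromosome X the second pair thus gave smaller ratios than the first in both stretches, and shared sites there ranked alike in the lines, at 67.0 and 65.5 up to 50 Mb and 64.1 and 63.9 further on.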

How the data were processed

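FOXA1 chromatin immunoprecipitation libraries of 22Rv1 and LNCaP cells were used as the peak lists the authors deposited, 1 library per group. Per the submitters' processing notes, the build was hg19 and the tools were MACS2 2.1.4, SAMtools 1.9, BWA 0.7.17-r1188 and FastQC 0.11.9. Their settings, and whether input DNA was used, are not given in the sources read. The score in the deposited lists is the authors' own value per peak, and its definition is not given. A list's peak number depends on depth and enrichment, which the lists do not hold.

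Chromosomes 1 to 22 and X were used. Overlap meant at least 1 bp and private meant no peak of the other list within 1 kb. Deciles and percentiles were taken by score within a list. Equal-sized lists kept the 65461 highest scores before chromosome Y was removed, except that the label check used 63952. Windows were 10 Mb with at least 50 peaks. The 95% Wilson intervals given with shares cover only counting error. Named sites were the 10 highest scores of each private class, the 5 shared sites of best mean rank, and the 5 highest and 5 lowest windows and 3 highest and 3 lowest chromosomes by ratio. The comparison, its members and these rules were chosen with earlier results of these data known.

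Alternatives were other overlap, distance and midpoint rules, equal-sized lists, the higher-scoring 50%, other window sizes, other lists of either line, and leaving out 5 chromosomes or SETD7 sites. The overlap code gave the same 31466 and 31289 shared peaks as bedtools 2.31.1, and it was tested on simulated lists. Computation used scipy 1.17.1, pandas 2.3.3 and numpy 2.4.6 under Python 3.11.15, with figures by matplotlib 3.10.9. Gene names, promoter shares, gene lists and motifs were not analysed here, since no annotation or sequence of build hg19 was used.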

Additional observations from a re-analysis of the deposited data

Results flagged for a closer look

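Chromosome Y peaks were outside the comparison. The 22Rv1 vehicle list held 368 of them, 0.562% of its peaks against a limit of 0.00458% that a count of 0 allows, with a highest score of 1542. The LNCaP DMSO list held 464, or 0.579% against a limit of 0.00374%, with a highest score of 2328. Of these, 140 were shared in each list, or 38.0% (33.2 to 43.1) in 22Rv1 and 30.2% (26.2 to 34.5) in LNCaP.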

How the results depend on the processing

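Of 68 alternatives over 11 results, 18 stayed within the limit set for the result and 50 moved beyond it. For shares the limit was the counting interval of the value, and for counts of windows it was 1.5 times. For the rank correlation and the range over chromosomes it was a fixed tolerance. Without replicates these intervals are narrow. Values are given for 22Rv1, then LNCaP.

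The shared fraction, 48.3% and 39.2%, was 43.3% and 35.3% with a reciprocal overlap of 50%, 47.5% and 38.7% with midpoints within 200 bp, 52.2% and 42.3% within 1 kb, 43.7% and 43.4% with equal-sized lists, 45.2% and 47.9% with shCTL for vehicle, 49.9% and 38.8% with the combination for DMSO, and 51.8% and 36.9% without chromosomes 1, 3, 7, 8 and 12. Without SETD7 sites the LNCaP value was 38.9%. Against any of the 3 lists of the other line, chosen after seeing the data, it was 54.6% and 55.9%.

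The private fraction, 47.8% and 57.7%, was 51.7% and 60.8% with no overlap as the rule, 49.6% and 59.2% at 500 bp, 38.1% and 49.3% at 5 kb, 52.8% and 53.7% with equal-sized lists, 49.7% and 59.3% in the higher-scoring 50% of each list, 51.2% and 49.3% with shCTL, 46.2% and 58.0% with the combination, and 44.4% and 60.3% without the 5 chromosomes. Without SETD7 sites the LNCaP value was 58.1%, and against any of 3 lists they were 41.5% and 40.5%. The LNCaP fraction was thus the larger under each of these except shCTL and any of 3 lists. The uncut shCTL list, with 83633 peaks, was longer than the LNCaP list, unlike the vehicle list.

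In the highest decile, 7.47% and 20.2% became 9.56% and 18.1% with equal-sized lists, 12% and 16.3% with shCTL, and 5.13% and 10.6% against any of 3 lists. The LNCaP value stayed the larger in all 3. Private peaks found again in shCTL, 50.2%, were 45.6% with equal-sized lists and 33.1% in shSETD7. Those found again in the combination, 85.0%, were 82.8% with equal-sized lists and 61.3% with GSK2879552. Windows beyond 1 in size, 5 of 307, numbered 18 with lists as deposited, 8 of 296 in the higher-scoring 50%, 29 of 591 at 5 Mb and 1 of 161 at 20 Mb. No paired analysis was possible because each group has 1 library. Depth is unknown, so peaks missing from a list were not detected there, which does not show that FOXA1 was absent.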
